A study of Mus musculus with 9 samples.

Results

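The expression of 10 genes of T cell regulation was followed through mouse conjunctiva: Foxp3, Ctla4, Icos, Pdcd1, Lag3, Cd274, Il2ra, Il2rb, Tnfrsf4 and Tnfrsf18. They were taken by symbol from the deposited table, which held all 10 among 20603 genes, and all 10 had enough counts to be tested. The tissue was conjunctiva, the mucous membrane of the eyelids and the front of the eye, and each of the 9 libraries was made from RNA of 3 pooled mice. Challenged knockouts were Vegfr3iLECko mice, Vegfr3 fl/fl animals that also carry prox1CreERT2, a tamoxifen-inducible Cre under the promoter of a lymphatic endothelial transcription factor. Challenged controls and unchallenged controls were Vegfr3 fl/fl littermates without Cre, on a C57BL/6j background. Mice of all 3 groups carried the floxed allele and received 5 tamoxifen injections (75 mg/kg) at week 5. Immunization followed at week 6, with ovalbumin (OVA, 250 µg), aluminum hydroxide (5 mg) and pertussis toxin (0.3 µg). From 14 days later, 250 µg of OVA was dropped into 1 eye daily for 28 days in both challenged groups. Each group had 3 libraries, and the eye and the animals that gave the unchallenged pools are not stated.

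Effector T cells are held in check by regulatory T cells and by inhibitory receptors that they display once activated. Regulatory T cells are defined by the transcription factor Foxp3 and carry at rest several receptors that other T cells show only after activation: the high-affinity IL-2 receptor chain CD25 (Il2ra), CTLA-4, ICOS, OX40 (Tnfrsf4) and GITR (Tnfrsf18). PD-1 (Pdcd1) and LAG-3 are induced on activated and persistently stimulated T cells, and the ligand of PD-1, PD-L1 (Cd274), is made by many cell types and is induced by interferon gamma. In allergic inflammation of mucosal surfaces, regulatory T cells are known to restrain T helper 2 responses. In bulk tissue, more cells of a type and more RNA per cell cannot be told apart.

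Total counts were 16490050 to 24746836 per library, and a floor of 3 counts corresponded to 0.115 to 0.186 CPM (counts relative to library size, scaled with TMM factors). Epithelial markers of the conjunctiva were present in every library: the 8 markers summed to 19800 to 34439 CPM in challenged knockouts, 19524 to 30206 CPM in challenged controls and 18779 to 28411 CPM in unchallenged controls. Flt4, the gene of Vegfr3, was at 12.96, 5.07 and 5.32 CPM in challenged knockouts 1 to 3, at 13.4, 20.3 and 20.1 CPM in challenged controls 1 to 3 and at 18.5, 26.8 and 13.5 CPM in unchallenged controls 1 to 3. The library labelled challenged knockout 1 was thus close to challenged control 1 and unchallenged control 3, and knockout below means what the label says. Knockouts over challenged controls differed in Flt4 by -1.20 on the log2 scale (SE 0.40, edgeR adjusted p = 0.468), and -1.78 (SE 0.34, adjusted p = 0.309) without knockout 1. One library stood apart for the members. Challenged control 1 was the highest of the 9 libraries for 10 of 10 members, whereas 22.3% of all tested genes were highest there. The members' fold changes and the list medians are therefore also given without that library. Counts were low for some members: Foxp3 had 7 to 31 counts per library and Ctla4 0 to 434.

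The sequences just before the transcription starts are shown for Ctla4 and Il2ra, the members most in excess in challenged control 1, for Cd274, the most abundant member, and for Foxp3, whose excess there was small. They come from RefSeq on build GRCm38.p6, matched by symbol, while the counts were made on mm39. Of the 10 members 7 had an entry, and Icos, Lag3 and Il2rb had none. Each is the 250 bases before the start, 5′ to 3′ on the gene's strand, and Foxp3 had 2 starts. Capitals mark matches on either strand to 5 letter patterns. These were TTCNNNGAA, bound by STAT proteins; TGANTCA, bound by AP-1; GGGA and CC with any 4 bases between, bound by NF-kB; GAAA repeated with any 2 bases between, bound by interferon regulatory factors; and GGAAA, the core bound by NFAT.
Ctla4 (chr1:60908775-60909024, plus strand): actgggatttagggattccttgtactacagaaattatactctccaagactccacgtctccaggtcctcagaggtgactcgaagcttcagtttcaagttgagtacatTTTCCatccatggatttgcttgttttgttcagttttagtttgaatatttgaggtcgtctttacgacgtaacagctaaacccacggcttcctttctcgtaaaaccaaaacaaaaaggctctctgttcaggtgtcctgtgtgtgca
Il2ra (chr2:11642542-11642791, plus strand): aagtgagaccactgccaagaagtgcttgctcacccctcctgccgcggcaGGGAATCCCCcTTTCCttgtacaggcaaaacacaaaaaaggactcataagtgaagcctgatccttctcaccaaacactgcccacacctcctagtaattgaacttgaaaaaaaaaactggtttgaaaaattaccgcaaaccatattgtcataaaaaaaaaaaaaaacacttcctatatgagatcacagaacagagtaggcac
Cd274 (chr19:29367188-29367437, plus strand): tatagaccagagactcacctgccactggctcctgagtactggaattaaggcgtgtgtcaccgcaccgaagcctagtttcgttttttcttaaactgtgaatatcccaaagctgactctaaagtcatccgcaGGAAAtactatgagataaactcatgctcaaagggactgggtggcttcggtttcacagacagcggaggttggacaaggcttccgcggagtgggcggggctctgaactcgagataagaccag
Foxp3, first start (chrX:7579426-7579675, plus strand): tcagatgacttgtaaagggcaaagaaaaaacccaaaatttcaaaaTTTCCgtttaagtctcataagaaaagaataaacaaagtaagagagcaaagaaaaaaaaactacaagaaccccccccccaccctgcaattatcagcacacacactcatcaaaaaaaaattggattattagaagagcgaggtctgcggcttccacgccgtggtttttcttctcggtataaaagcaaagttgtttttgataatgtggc
Foxp3, other start (chrX:7580233-7580482, plus strand): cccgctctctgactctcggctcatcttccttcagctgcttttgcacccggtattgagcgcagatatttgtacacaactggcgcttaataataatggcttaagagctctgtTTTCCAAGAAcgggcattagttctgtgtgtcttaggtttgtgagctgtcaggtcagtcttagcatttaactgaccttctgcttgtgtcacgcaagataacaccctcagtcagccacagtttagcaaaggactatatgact

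Matches were few. The Il2ra window held 1 match to the NF-kB pattern, which 17.6% of 32851 promoter windows of the same length hold, and 1 to the NFAT core, which 55.6% hold. The Ctla4 and Cd274 windows each held 1 NFAT core and no match to the other 4 patterns. The second Foxp3 window held 1 match to the STAT pattern, found in 7.02% of windows, and it overlapped its NFAT core. The AP-1 pattern (6.75% of windows) and the interferon regulatory factor pattern (2.98%) had no match in these 5 windows. By gene order, Ctla4 lies between Cd28, the costimulatory receptor, and Icos on chromosome 1, and Tnfrsf4 and Tnfrsf18 are neighbours on chromosome 4.

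The receptor for the growth factor IL-2 has a chain that raises its affinity, CD25 (Il2ra), and a signalling chain shared with the IL-15 receptor, CD122 (Il2rb). Il2ra was at 3.78, 4.19 and 1.14 CPM in challenged knockouts 1 to 3, at 53.9, 2.47 and 3.42 CPM in challenged controls 1 to 3 and at 2.62, 0.804 and 0.787 CPM in unchallenged controls 1 to 3. A single challenged control thus stood far above all other libraries, and the remaining 8 libraries overlapped between groups. Challenged over unchallenged controls differed by a log2 fold change of 3.83 (SE 1.18, edgeR quasi-likelihood test, adjusted p = 0.199), and by 1.08 (SE 0.68) without challenged control 1. Challenged knockouts over challenged controls differed by -2.71 (SE 1.11, adjusted p = 0.541), and by 0.05 (SE 0.67) without that library.

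Il2rb behaved differently from Il2ra, since its level did not rest on 1 library. It was at 9.46, 9.67 and 5.49 CPM in challenged knockouts, at 65.5, 16.4 and 19.3 CPM in challenged controls and at 6.49, 4.29 and 3.73 CPM in unchallenged controls. Every challenged control exceeded every knockout and every unchallenged control, while knockouts overlapped with unchallenged controls. Challenged over unchallenged controls gave a log2 fold change of 2.80 (SE 0.54), a 6.97-fold difference that missed the threshold in the edgeR test (adjusted p = 0.0949). It passed with the replicate number as a block (adjusted p = 0.0217) and in DESeq2 (adjusted p = 7.4e-06), neither rerun without challenged control 1. Without challenged control 1 it was 1.89 (SE 0.33, adjusted p = 0.0997). Knockouts over challenged controls gave -2.04 (SE 0.52, adjusted p = 0.342 in edgeR and 0.0067 in DESeq2), and -1.12 (SE 0.33, adjusted p = 0.627 in edgeR) without challenged control 1.

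The other parts of the receptor system were measured beside them. Il2rg, the common gamma chain that completes the receptor, was at 5.38 ± 1.64, 12.7 ± 6.28 and 4.54 ± 2.22 CPM in challenged knockouts, challenged controls and unchallenged controls (SD, n = 3 each). Il2 itself had 0 to 8 counts per library and was too low to be tested. Il15, another cytokine that signals through CD122, was at 10.1, 9.32 and 6.52 CPM in challenged knockouts, at 19.2, 9.41 and 13.6 CPM in challenged controls and at 10.6, 5.09 and 4.57 CPM in unchallenged controls. The challenged controls thus overlapped with both other groups for Il15 (log2 fold change 1.06, SE 0.38, adjusted p = 0.277 with challenge, and 0.77, SE 0.40, without challenged control 1). These 3 genes were chosen after their values were seen.

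Foxp3, the defining transcription factor of regulatory T cells, was the least abundant member in counts. Its counts were 24, 11 and 7 in challenged knockouts 1 to 3, 31, 16 and 17 in challenged controls and 17, 12 and 8 in unchallenged controls. As levels these were 0.934, 0.649 and 0.400 CPM in challenged knockouts, 1.92, 0.717 and 0.970 CPM in challenged controls and 0.890, 0.459 and 0.420 CPM in unchallenged controls. The 3 groups overlapped. The log2 fold change was 1.02 (SE 0.57, edgeR adjusted p = 0.553) for challenged over unchallenged controls and -0.83 (SE 0.57, adjusted p = 0.721) for knockouts over challenged controls. Without challenged control 1 these values were 0.52 (SE 0.62) and -0.33 (SE 0.62). With SEs of this size, the data do not show whether Foxp3 differed between groups.

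Costimulatory receptors among the members were Icos, Tnfrsf4 and Tnfrsf18. ICOS, a relative of CD28 on activated and follicular helper T cells, had an Icos level of 3.54, 2.65 and 1.83 CPM in challenged knockouts, 42.9, 2.47 and 3.31 CPM in challenged controls and 3.09, 1.11 and 1.52 CPM in unchallenged controls. As for Il2ra, challenged control 1 was alone in being high and the other 8 libraries overlapped. Its log2 fold change was 3.09 (SE 1.01, edgeR adjusted p = 0.224) with challenge, and 0.61 (SE 0.51) without challenged control 1. For knockouts over challenged controls it was -2.59 (SE 0.98, adjusted p = 0.515), and -0.10 (SE 0.51) without that library.

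Tnfrsf4 (OX40), a survival receptor of activated T cells, was at 3.15, 3.77 and 2.69 CPM in challenged knockouts, 8.23, 1.34 and 3.94 CPM in challenged controls and 1.52, 2.76 and 3.67 CPM in unchallenged controls. The highest and the lowest of these 9 levels were both in challenged controls. Tnfrsf18 (GITR), which is high on regulatory T cells, was at 3.58, 1.65 and 1.54 CPM in challenged knockouts, 6.06, 2.55 and 3.31 CPM in challenged controls and 2.62, 2.30 and 1.15 CPM in unchallenged controls. Groups overlapped for both genes. The log2 fold change with challenge was 0.76 (SE 0.58, edgeR adjusted p = 0.700) for Tnfrsf4 and 0.97 (SE 0.50, adjusted p = 0.501) for Tnfrsf18. Between knockouts and challenged controls it was -0.48 (SE 0.58) for Tnfrsf4 and -0.80 (SE 0.50) for Tnfrsf18. Tnfrsf18 without challenged control 1 differed by 0.53 (SE 0.51) with challenge and by -0.36 (SE 0.51) between knockouts and challenged controls; without knockout 1 the second value was -1.30 (SE 0.52, adjusted p = 0.424). The difference in Tnfrsf4 changed sign without challenged control 1 in both comparisons, to -0.01 (SE 0.53) and 0.29 (SE 0.54).

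Among the inhibitory receptors, CTLA-4 competes with CD28 for its ligands. Ctla4 had 19, 17 and 8 counts in challenged knockouts, 434, 28 and 22 counts in challenged controls and 13, 4 and 0 counts in unchallenged controls. These were levels of 0.740, 1.003 and 0.457 CPM, of 26.8, 1.25 and 1.25 CPM and of 0.680, 0.153 and 0 CPM in the same order of groups, and the count of 0 allows up to 0.157 CPM in that library. Every challenged control exceeded every library of the other groups, although challenged controls 2 and 3 did so by few counts. The log2 fold change with challenge was 5.13 (SE 1.42, edgeR adjusted p = 0.162), 2.18 (SE 0.99, adjusted p = 0.609) if challenged control 1 is left out and 6.73 if unchallenged control 1 is. It passed only with the replicate number as a block in the 2 control groups alone (adjusted p = 0.0234, and 0.0598 with the block over all 9 libraries). For knockouts over challenged controls it was -3.72 (SE 1.29, adjusted p = 0.486), and -0.77 (SE 0.94) without challenged control 1.

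PD-1 marks chronically stimulated T cells, and is encoded by Pdcd1. Pdcd1 was at 4.36, 5.13 and 7.26 CPM in challenged knockouts, 21.0, 5.42 and 4.16 CPM in challenged controls and 4.45, 2.11 and 2.68 CPM in unchallenged controls. Leaving aside challenged control 1, the highest level was in challenged knockout 3. The log2 fold change was 1.73 (SE 0.60, edgeR adjusted p = 0.247, DESeq2 adjusted p = 0.0485) with challenge and 0.65 (SE 0.40) without challenged control 1. For knockouts over challenged controls it was -0.87 (SE 0.58, adjusted p = 0.716), and 0.22 (SE 0.40) without that library, so its sign turned.

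LAG-3 binds MHC class II and restrains T cells. Lag3 was at 1.83, 2.01 and 1.54 CPM in challenged knockouts, 5.32, 2.64 and 1.77 CPM in challenged controls and 1.10, 0.727 and 1.26 CPM in unchallenged controls. Both challenged groups lay above all unchallenged controls and overlapped with each other. The log2 fold change was 1.65 (SE 0.47, edgeR adjusted p = 0.176, DESeq2 adjusted p = 0.0219) for challenged over unchallenged controls, and 1.11 (SE 0.44) without challenged control 1. It was 0.80 (SE 0.47, edgeR adjusted p = 0.999) for knockouts over unchallenged controls and -0.85 (SE 0.46, adjusted p = 0.657) for knockouts over challenged controls, and -0.30 (SE 0.44) in that comparison without challenged control 1.

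Cd274 encodes PD-L1, the ligand of PD-1, and had the most counts of the members. It was at 86.3, 90.7 and 60.4 CPM in challenged knockouts, 603, 114 and 228 CPM in challenged controls and 79.1, 46.5 and 48.2 CPM in unchallenged controls. All challenged controls exceeded all libraries of the other groups, and knockouts overlapped with unchallenged controls. The log2 fold change with challenge was 2.44 (SE 0.53), a 5.44-fold difference that did not pass the edgeR test (adjusted p = 0.101). It passed with the replicate number as a block (adjusted p = 0.0367), in DESeq2 (adjusted p = 8.1e-05) and without challenged control 2 (2.83, adjusted p = 0.0405). All of these fits included challenged control 1. Without challenged control 1 the log2 fold change with challenge was 1.56 (SE 0.33, edgeR adjusted p = 0.138). Knockouts over challenged controls gave -1.99 (SE 0.52, adjusted p = 0.348 in edgeR and 0.0067 in DESeq2), and -1.11 (SE 0.33, adjusted p = 0.631 in edgeR) without challenged control 1. A predicted gene that overlaps Cd274 in RefSeq, Gm36043, had 81, 68 and 41 counts in challenged knockouts, 686, 71 and 131 in challenged controls and 104, 27 and 26 in unchallenged controls, and without strand its reads cannot be told apart from those of Cd274. Plgrkt also overlaps Cd274, with 395 to 852 counts per library. Tnfrsf4 likewise overlaps Sdf4, which had 2640 to 4699 counts per library. Tnfrsf18 overlaps Gm16008, which had 52, 8 and 5 counts in challenged knockouts, 18, 9 and 13 in challenged controls and 28, 23 and 7 in unchallenged controls. Foxp3 overlaps Flicr, which had 0 to 4 counts per library.

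**Figure D1:**
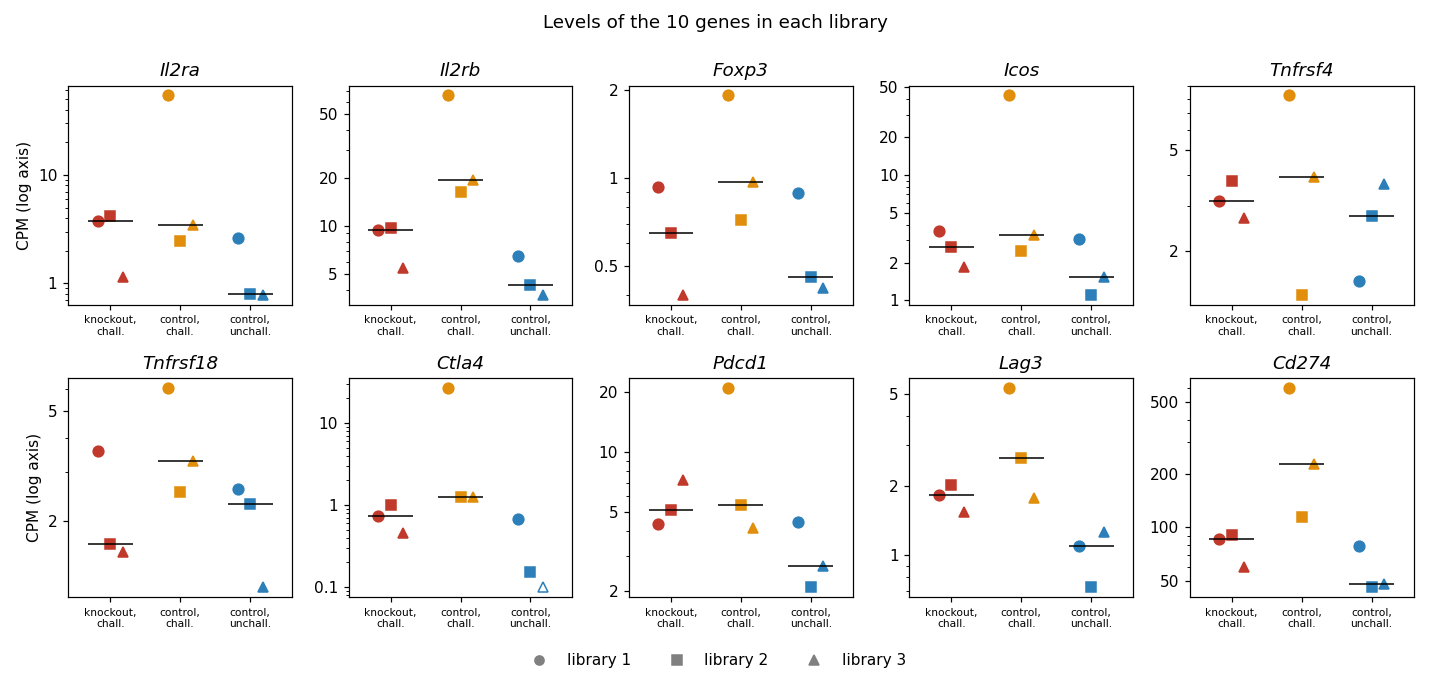
CPM on log axes for each of the 10 members in challenged knockouts, challenged controls and unchallenged controls, with 1 point per library, the symbol giving the library number and the line the group median. An open symbol at the bottom of the Ctla4 panel is a library with 0 counts. Challenged control 1 is the highest point in every panel, and Il2rb, Ctla4 and Cd274 are the members whose 3 challenged controls all lie above the other 6 libraries.

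The comparison of challenged with unchallenged controls asks what repeated OVA eye drops did to these genes in control mice. No member passed at an adjusted p of 0.05 in the edgeR test, which called 0.064% of 15613 tested genes. All 10 log2 fold changes were above 0, with a median of 2.09, against -0.01 over all tested genes. At an unadjusted p under 0.05, 7 of 10 members were higher, where 6.77% of tested genes were, and in 4 of 10 (Ctla4, Lag3, Cd274 and Il2rb) the groups did not overlap, where 7.21% of tested genes were higher without overlap. The main test used group only. For the block, these 2 groups were taken as paired by replicate number from the data alone, since the labels do not say what the number marks. With the number as a block over all 9 libraries, knockouts included, Cd274 and Il2rb passed, where 1.71% of tested genes did. With the block in the 2 control groups alone Ctla4 passed too (3.12% of tested genes did), and without challenged control 2 Cd274 was the 1 member that passed (0.217%). DESeq2 called Pdcd1, Lag3, Cd274 and Il2rb, 4 of the 7 members to which it gave an adjusted p (4.66% of genes with one). It gave none to Ctla4, Icos and Il2ra, the 3 members with the largest excess in challenged control 1, so the 7 leave these out. Without challenged control 1, 9 of 10 log2 fold changes were above 0 with a median of 0.86, and 3 of 10 members were higher at an unadjusted p under 0.05, where 3.76% of tested genes were.

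The comparison of challenged knockouts with challenged controls asks what loss of lymphatic Vegfr3 did under challenge. No member passed in the edgeR test, and 0% of tested genes did. All 10 log2 fold changes were below 0, with a median of -1.43, against 0.00 over all tested genes. This comparison shares the challenged controls with the first one, so the opposite signs are not independent. With the replicate block 0 members passed, where 0.141% of tested genes did. At an unadjusted p under 0.05, 5 of 10 members were lower (4.53% of tested genes were), and in Ctla4, Cd274 and Il2rb the groups did not overlap (6.24% of tested genes were lower without overlap). DESeq2 called Cd274 and Il2rb, 2 of 7 members with an adjusted p, and 1.58% of all genes with one. Without challenged control 1 the median was -0.32, the differences in Il2ra, Pdcd1 and Tnfrsf4 were above 0, those in Cd274 and Il2rb were -1.11 and -1.12, and 2 of 10 members were lower at an unadjusted p under 0.05 (1.99% of tested genes were). Without the library labelled knockout 1 all 10 were below 0 with a median of -1.68, 0 passed, and Ctla4, Cd274 and Il2rb differed by -3.72, -2.06 and -2.15.

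Challenged knockouts differ from unchallenged controls in both genotype and challenge. In the edgeR test 0 of 10 members passed, as did 0% of tested genes, and 0 had an unadjusted p under 0.05, where 1.25% of tested genes were higher. DESeq2 called 0 of 7 members (0.089% of genes with an adjusted p). The log2 fold changes were 0.17 to 1.41, the largest in Ctla4 (1.41, SE 1.40), followed by Il2ra (1.13, SE 1.11), Pdcd1 (0.86, SE 0.59) and Lag3. In Lag3 alone the groups did not overlap, where 3.26% of tested genes were higher without overlap. In order of group means, challenged controls were highest, knockouts next and unchallenged controls lowest for 10 of 10 members. By medians this order held for 8 of 10: the median of Il2ra was higher in knockouts (3.78 CPM) than in challenged controls (3.42 CPM), and that of Tnfrsf18 was lower in knockouts (1.65 CPM) than in unchallenged controls (2.30 CPM).

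**Figure D2:**
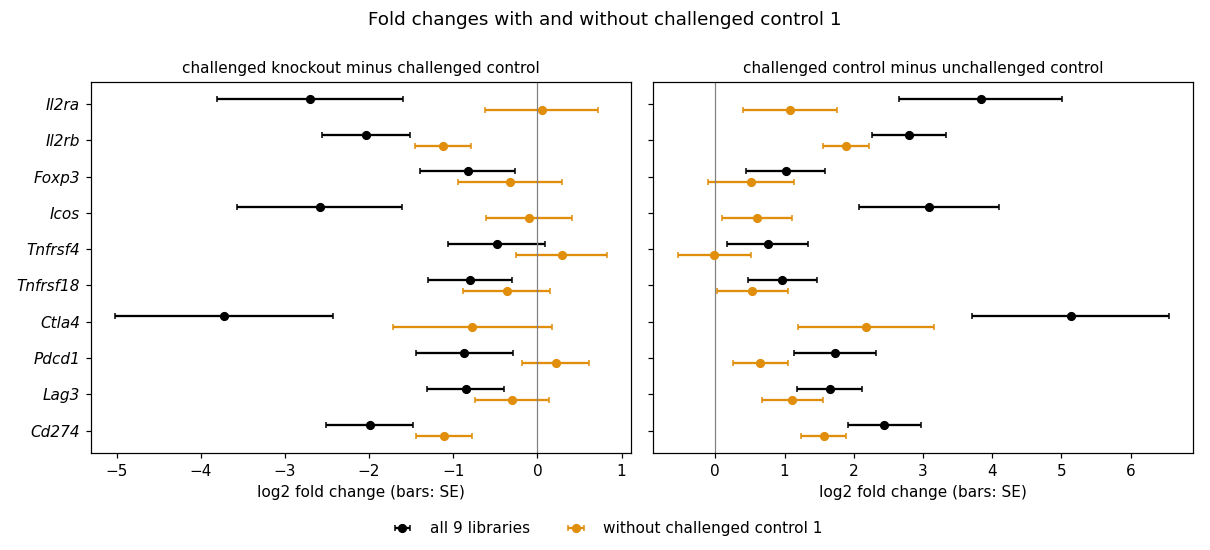
Log2 fold changes of the 10 members with SE bars for challenged knockouts over challenged controls (left) and challenged over unchallenged controls (right), from edgeR fits with all 9 libraries and without challenged control 1. Leaving out that library moves Il2ra, Icos and Ctla4 most, and Il2rb and Cd274 remain farther from 0 than their SE in both panels.

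The size of the excess in challenged control 1 separated the members. Its level was 21.4 times the mean of challenged controls 2 and 3 for Ctla4, 18.3 times for Il2ra and 14.9 times for Icos. An excess of over 4-fold was found in these 3 and Pdcd1, and in 2.49% of tested genes. On the log2 scale an excess as large as those was found in 0.243%, 0.269% and 0.339% of tested genes, in that order. The ratio was 4.39 for Pdcd1, 3.67 for Il2rb, 3.53 for Cd274 and 3.12 for Tnfrsf4. It was 2.41 for Lag3, 2.27 for Foxp3 and 2.07 for Tnfrsf18, and 7.01% to 9.80% of tested genes had an excess as large as those 3. Of the members that regulatory T cells carry, Ctla4, Il2ra and Icos thus had the largest excesses of the 10, and Foxp3 and Tnfrsf18 the smallest. Ifng, the cytokine that induces Cd274, was at 21.0, 1.61 and 2.28 CPM in challenged controls 1 to 3, and at 0.117, 1.003 and 0.343 CPM in challenged knockouts. Whether the other genes that are high in challenged control 1 have a part in these values was not tested.

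To set the members beside the amount of T cell receptor message, their counts were divided by the summed counts of the CD3 chains Cd3e, Cd3d, Cd3g and Cd247 in the same library. The chains summed to 401, 254 and 214 counts in challenged knockouts, 959, 763 and 569 in challenged controls and 260, 185 and 216 in unchallenged controls. These ratios are descriptions and were not tested. Foxp3 had 5.99, 4.33 and 3.27 counts per 100 CD3 chain counts in challenged knockouts, 3.23, 2.10 and 2.99 in challenged controls and 6.54, 6.49 and 3.70 in unchallenged controls. The challenged controls were thus below all other libraries, but by little against challenged knockout 3, for which the 95% exact interval ran from 1.30 to 6.86 against 2.18 to 4.62 in challenged control 1. Over the summed counts of a group the Foxp3 ratio was 4.83 (95% exact interval 3.46 to 6.59) in knockouts, 2.79 (2.14 to 3.58) in challenged controls and 5.60 (3.91 to 7.80) in unchallenged controls, and these intervals cover counting error only.

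Foxp3 was the single member of 10 whose ratio to CD3 chains was lower in challenged than in unchallenged controls without overlap, while 87.9% of tested genes were; the CD3 chains themselves were higher in every challenged control. The other 9 overlapped. Il2rb is an example, with 60.6, 64.6 and 44.9 counts per 100 CD3 chain counts in knockouts, 110, 48.0 and 59.6 in challenged controls and 47.7, 60.5 and 32.9 in unchallenged controls. Ctla4 had 4.74, 6.69 and 3.74 in knockouts, 45.3, 3.67 and 3.87 in challenged controls and 5.00, 2.16 and 0 in unchallenged controls. For Icos the ratio was 22.7, 17.7 and 14.95 in knockouts, 72.3, 7.21 and 10.2 in challenged controls and 22.7, 15.7 and 13.4 in unchallenged controls. In challenged controls 2 and 3 Icos was therefore below every knockout and every unchallenged control relative to CD3, although its CPM was not. Between knockouts and challenged controls, Foxp3, Lag3, Tnfrsf4 and Tnfrsf18 had higher ratios in knockouts without overlap, 4 of 10 members, against 83.8% of tested genes. For Lag3 it was 11.7, 13.4 and 12.6 in knockouts and 8.97, 7.73 and 5.45 in challenged controls. Lag3 was also the 1 member with higher ratios in knockouts than in all unchallenged controls (8.08, 10.3 and 11.1), where 0.32% of tested genes were. The gap of Lag3 to unchallenged controls was within counting error: the 95% exact interval ran from 8.47 to 15.9 in challenged knockout 1 and from 6.97 to 17.0 in unchallenged control 3. Over the summed counts the intervals, 10.1 to 15.2 in knockouts and 7.37 to 12.5 in unchallenged controls, overlapped too.

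**Figure D3:**
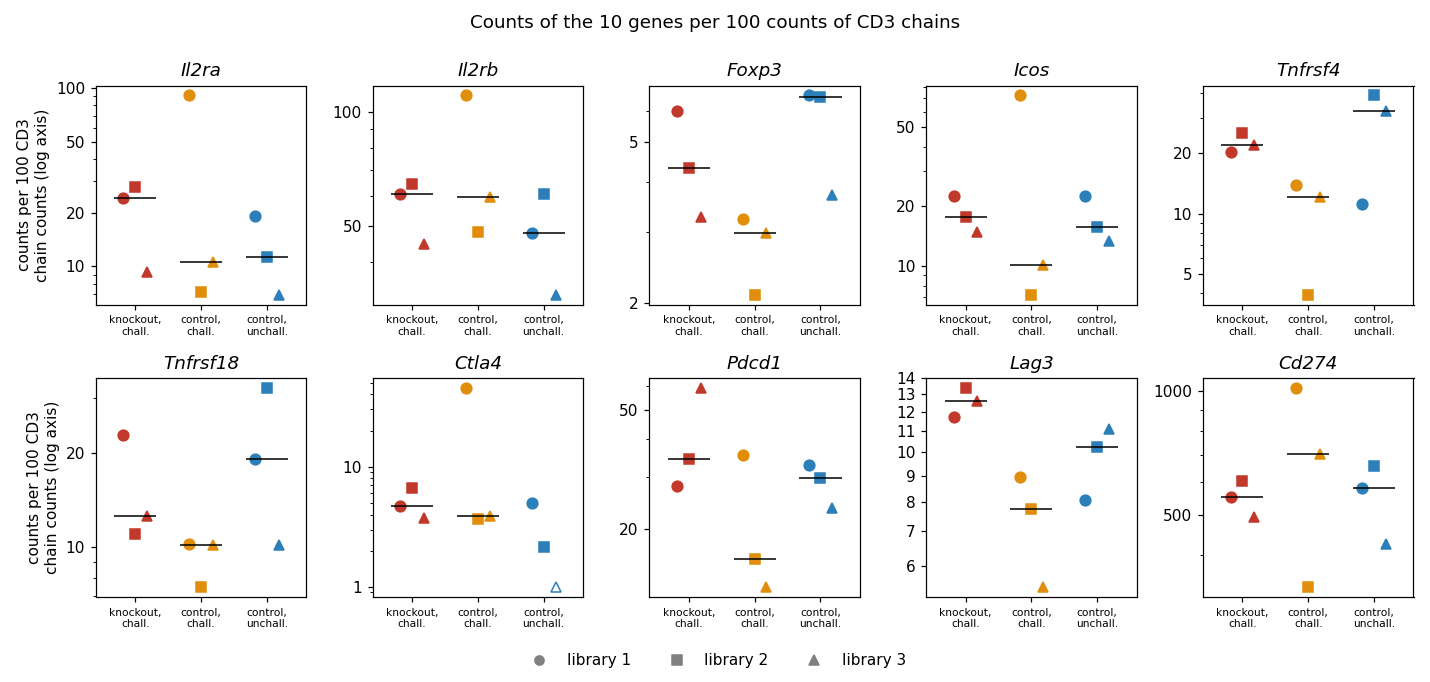
Counts of each of the 10 members per 100 summed counts of 4 CD3 chains, on log axes, with 1 point per library and lines at group medians. The open symbol for Ctla4 is a library with 0 counts. For Foxp3 the 3 challenged controls (2.10 to 3.23) lie below the other 6 libraries, whereas for Il2rb the 3 groups overlap.

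The remaining genes of these pathways were counted from fixed lists. Of 16 other checkpoint and costimulatory receptors, 0 passed with challenge and 0 with genotype in the edgeR test. At an unadjusted p under 0.05, 9 of the 16 were higher with challenge and 7 lower in knockouts than in challenged controls, where 6.77% and 4.53% of tested genes were, and the median log2 fold changes were 1.53 and -1.37. The counts were 4 and 1 and the medians 0.93 and -0.83 when challenged control 1 was left out. Havcr2 (TIM-3), an inhibitory receptor of T cells and dendritic cells, was at 3.81, 3.18 and 2.57 CPM in knockouts, 19.4, 5.15 and 6.16 CPM in challenged controls and 2.62, 1.11 and 1.15 CPM in unchallenged controls. Cd28 was at 1.36, 1.12 and 0.343 CPM in knockouts, 9.34, 2.51 and 2.45 CPM in challenged controls and 2.51, 1.23 and 0.682 CPM in unchallenged controls. The most abundant of the list, Vsir (VISTA, also on myeloid cells) and Tnfrsf14 (HVEM), differed by 0.05 (SE 0.18) and 0.58 (SE 0.34) on the log2 scale with challenge. Havcr2 and Cd28 were chosen after their values were seen.

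Of the list of 16 ligands and signalling partners 13 were tested, 0 passed in either comparison, and 5 were higher with challenge and 3 lower with genotype at an unadjusted p under 0.05, where 6.77% and 4.53% of tested genes were. Their median log2 fold change was 0.78 with challenge and -0.70 with genotype. With challenged control 1 left out, the counts were 1 and 0 and the medians 0.32 and -0.25. Pdcd1lg2, the second PD-1 ligand, was at 0.662, 1.24 and 0.0572 CPM in knockouts, 7.42, 0.359 and 0.684 CPM in challenged controls and 0.0523, 0 and 0.157 CPM in unchallenged controls. Cd80 and Cd86, the ligands of CD28 and CTLA-4, were at 3.46, 0.944 and 0.629 CPM and at 5.29, 3.07 and 3.37 CPM in knockouts. In challenged controls they were at 15.1, 2.55 and 2.17 CPM and at 26.6, 7.04 and 5.76 CPM, and in unchallenged controls at 1.78, 1.84 and 0.630 CPM and at 6.80, 3.02 and 1.89 CPM. Cd80, Cd86 and Pdcd1lg2 were thus highest in challenged control 1. Icosl, the ligand of ICOS, was not highest there, and was at 39.0 ± 4.21, 45.8 ± 4.18 and 46.1 ± 6.94 CPM in knockouts, challenged controls and unchallenged controls (SD, n = 3 each). The most abundant partners, Lgals3 (galectin-3) and the kinase Jak1, had log2 fold changes of 0.15 (SE 0.28) and 0.21 (SE 0.16) with challenge. These ligands were also chosen after their values were seen, except Lgals3 and Jak1, and Tnfsf4 was not analysed here.

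Of 20 further genes linked to regulatory T cells 17 were tested, and 1 passed with challenge, where 0.064% of tested genes did. Itgae, the CD103 integrin chain of T cells in epithelia, was the 1 that passed with challenge, at 5.85 ± 1.36 CPM in knockouts, 23.1 ± 3.48 CPM in challenged controls and 4.72 ± 1.27 CPM in unchallenged controls (SD, n = 3 each; log2 fold change 2.30, SE 0.29, edgeR adjusted p = 0.0339). Its log2 fold change without challenged control 1 was 2.17 (SE 0.31) and did not pass (adjusted p = 0.0712), nor did it without knockout 1 (adjusted p = 0.0535). Without unchallenged control 2 or unchallenged control 3, 0 genes of the whole table passed with challenge, and 1 did without challenged control 3. At an unadjusted p under 0.05, 6 of the 17 were higher with challenge and 4 lower with genotype, where 6.77% and 4.53% of tested genes were, with medians of 0.78 and -0.84. Leaving out challenged control 1 gave counts of 2 and 2 and medians of 0.26 and -0.35. Ikzf2 (Helios), a factor of thymic regulatory T cells that other tissues also express, was at 181 ± 23.9, 218 ± 28.0 and 201 ± 43.9 CPM in knockouts, challenged controls and unchallenged controls. Il10, a cytokine of regulatory T cells, was at 0.856, 0.590 and 0.114 CPM in knockouts, 3.03, 0.448 and 0.570 CPM in challenged controls and 0.471, 0.191 and 0.105 CPM in unchallenged controls. Il10 and Ikzf2 were chosen after their values were seen, and neither passed.

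T cell identity genes had 3 of 18 members that passed with challenge, where 0.064% of tested genes did, all higher: Cd8b1, Cd8a and Lck. None of the 3 passed without unchallenged control 2 or unchallenged control 3, when 0 genes of the whole table did. The median of the T cell identity list was 2.17 with challenge and -1.81 with genotype, beside 2.09 and -1.43 for the 10 members. The medians of the list without challenged control 1 were 1.38 and -1.32, beside 0.86 and -0.32 for the members, and Cd8b1 no longer passed (adjusted p = 0.0746). Cd4, the co-receptor of helper and regulatory T cells, was at 3.00, 1.42 and 1.54 CPM in knockouts, 19.6, 5.69 and 5.08 CPM in challenged controls and 1.99, 2.26 and 2.10 CPM in unchallenged controls (log2 fold change with challenge 2.25, edgeR adjusted p = 0.123, and 1.35, adjusted p = 0.290, without challenged control 1). Of the 8 helper lineage regulators 0 passed, with medians of 0.32 and -0.08, and of 0.18 and -0.08 without challenged control 1. In that list Tbx21 (T-bet), the type 1 factor, was at 0.311, 0.767 and 0.686 CPM in knockouts, 5.07, 1.79 and 1.03 CPM in challenged controls and 0.419, 0.0766 and 0.0525 CPM in unchallenged controls. Gata3, the type 2 factor, was at 3.84 ± 2.44, 3.68 ± 1.39 and 2.97 ± 0.66 CPM in the same order of groups (SD, n = 3 each). Tbx21 and Gata3 were chosen after their values were seen.

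Il2rb, Lag3 and Pdcd1 are also expressed by other lymphocytes, so markers of these were summed. In natural killer cell markers, 2 of 9 tested members passed with challenge, Gzma and Nkg7, where 0.064% of tested genes did. The list summed to 27.8 to 58.7 CPM in knockouts, 117 to 302 CPM in challenged controls and 4.83 to 20.8 CPM in unchallenged controls. Nkg7 did not pass without challenged control 1 or without knockout 1 (adjusted p = 0.0712 and 0.0642). Neither gene passed without unchallenged control 2 or unchallenged control 3. CD8 T cells express many of the same genes. None of the 12 was at 0 in a whole group, and the natural killer cell receptor Ncr1 was at 0.467, 0 and 0 CPM in knockouts, 0.680, 0.314 and 0.285 CPM in challenged controls and 0.837, 0.0383 and 0 CPM in unchallenged controls (chosen after its values were seen). Type 2 innate lymphoid cell markers, 6 of 9 tested, had 0 members past the threshold and medians of 0.05 with challenge and -0.05 with genotype, and of -0.18 and 0.16 without challenged control 1. Interferon gamma response genes, 13 of 14 tested, had 0 past the threshold in edgeR. With challenge 12 were higher at an unadjusted p under 0.05, where 6.77% of tested genes were (11 and 3.76% without challenged control 1). With genotype 6 were lower, where 4.53% of tested genes were (1 and 1.99% without challenged control 1, 1 and 6.71% without knockout 1). The genotype median was -1.08, and -0.35 without challenged control 1 and -1.06 without knockout 1. The list summed to 797 to 1659 CPM in knockouts, 1191 to 5562 CPM in challenged controls and 586 to 748 CPM in unchallenged controls.

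Markers of tissue outside the immune system also moved with the groups. All 10 skeletal muscle markers were lower with challenge and higher in knockouts at an unadjusted p under 0.05 (5.65% of tested genes were lower with challenge and 3.95% higher in knockouts), and 0 passed after adjustment; both counts were 10 without challenged control 1 too. They summed to 2101 to 2902 CPM in knockouts, 296 to 831 CPM in challenged controls and 1296 to 4963 CPM in unchallenged controls, and none was at 0 in a group. Adipocyte markers summed to 7.09 to 19.8, 1.43 to 5.63 and 4.88 to 62.7 CPM in the same groups. B cell, macrophage and dendritic cell markers, with 4 of 7, 8 of 8 and 9 of 9 tested, had medians of 1.92, 0.66 and 1.38 with challenge and of -2.70, -0.81 and -1.28 with genotype. These medians were 0.94, 0.34 and 1.12 with challenge and -1.72, -0.38 and -0.92 with genotype when challenged control 1 was left out. Epithelial and lymphatic endothelial markers had medians of 0.28 and -0.21 with challenge and of 0.02 and 0.07 with genotype; without challenged control 1 these were 0.36, -0.11, -0.12 and 0.01. The part of tissue composition in the members' values was not tested, and with muscle markers lower in all 3 challenged controls it cannot be told apart from the groups.

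**Figure D4:**
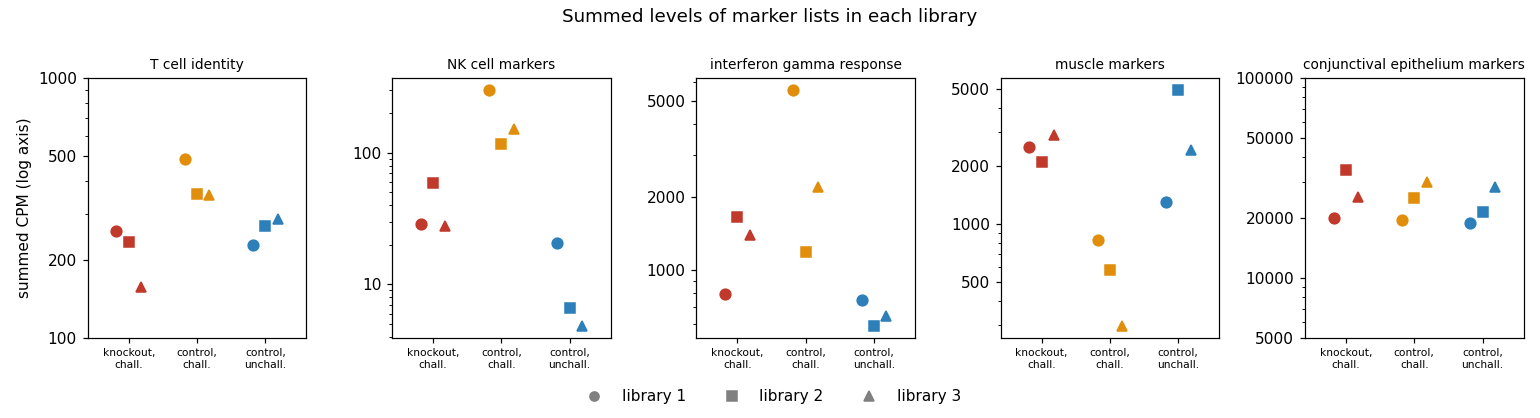
Summed CPM of 5 marker lists on log axes, with 1 point per library, in challenged knockouts, challenged controls and unchallenged controls. T cell and natural killer cell sums are highest and muscle sums lowest in the 3 challenged controls, and epithelial sums overlap between groups. Thy1 (chosen after its values were seen) is the largest part of the T cell sum. It is at 132 ± 43.2, 170 ± 26.3 and 189 ± 33.1 CPM in challenged knockouts, challenged controls and unchallenged controls (SD, n = 3 each).

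For each member with a mean of at least 1 CPM over the 9 libraries, which left out Foxp3, the 2 tested genes with the most similar profile were listed by the root mean square difference of centred log2 CPM over the 9 libraries. Il2ra and Icos had the same nearest genes, the monocyte-attracting chemokine Ccl12 (0.391 from Il2ra and 0.217 from Icos) and Tnip3, an inhibitor of NF-kB signalling (0.455 and 0.385). The chemokine Ccl7 (0.722) and the lectin-like receptor Klrc1 (0.749) were nearest to Ctla4, at larger distances. The checkpoint receptor Havcr2 (0.243) was among the nearest to Il2rb, and Lag3 was nearest to the T cell receptor chain Cd247 (0.255) and Sting1 (0.278). Pdcd1 was nearest to Jaml (0.198) and Rab20 (0.242), and Cd274 to the interferon-induced Slfn8 (0.246) and P2ry10 (0.254). Tnfrsf4 was nearest to Rrad (0.234) and Ctps (0.296), and Tnfrsf18 to the receptor genes Tlr1 (0.200) and Htr2a (0.214). Ccl12 showed the pattern plainly, with 2.69, 1.71 and 0.915 CPM in knockouts, 29.4, 1.70 and 2.62 CPM in challenged controls and 1.78, 0.881 and 0.787 CPM in unchallenged controls.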

How the data were processed

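RNA from pools of mouse conjunctiva was sequenced as messenger RNA libraries. The authors deposited raw counts of reads per gene symbol, and per the submitters' processing notes HISAT2, Bowtie2, DESeq2 and build mm39 were used; versions, the counting program, the annotation and the strand were not given in the sources used here. Counts were analysed as deposited in R 4.3.3 with edgeR 4.0.16 (TMM factors, filterByExpr on 3 groups, 15613 of 20603 genes kept, quasi-likelihood test on all 9 libraries, Benjamini-Hochberg adjustment over all genes tested, two-sided, threshold 0.05). SE is the absolute log2 fold change divided by the root of the F statistic. Alternatives were DESeq2 1.42.0, RLE factors, no filter, each library left out (for lists, without challenged control 1 or knockout 1, added after seeing the data), a replicate block and fits of 2 groups. The fit was tested on simulated data. The common biological coefficient of variation was 31.7%.

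Groups came from sample titles. The labels do not say what a replicate number marks. Libraries with the same number deviated from their group means with correlations of 0.245 to 0.488 between challenged and unchallenged controls. These 2 groups were therefore taken as paired from the data for the block fits, while the main edgeR test used group only. Correlations under other matchings of the libraries were not computed, so the pairing is an assumption. Between knockouts and challenged controls the correlations were -0.147 to 0.339 and no pairing was assumed. The block over all 9 libraries still applied the number to the knockouts. P-values measure spread between pools, and no library was a copy of another of its group. Reads are not independent molecules, so the intervals and the floor describe counting error alone. Members and lists were chosen with earlier results of these data known, so no adjustment over a list and no list test is given. Named genes were the members, Cd3e, Cd4, Cd8a, Ifng, Flt4, list members past the threshold (otherwise the 2 most abundant of a list) and the nearest profiles. Genes that overlap members were named for that overlap, and for others the text says that their choice followed their values. One gene that the rule names is not reported here.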

Additional observations from a re-analysis of the deposited data

How the results depend on the processing

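The count of members past the threshold was 0 in each of the 3 comparisons with all 9 libraries. With challenge it was 2 with the replicate block over all 9 libraries, 3 with the replicate block over the 2 control groups, 4 with DESeq2, and 0 to 1 when 1 library was left out (Cd274 without challenged control 2). For knockouts over challenged controls it was 2 with DESeq2 and 0 to 0 with 1 library left out. The replicate block changed no other call. Neither the block nor DESeq2 was run with a library left out, so all of their calls include challenged control 1. RLE factors, no filter on low counts and a fit of the 2 groups alone gave 0 in each comparison.

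Signs of the members' fold changes turned only when single libraries were left out. With challenge, the log2 fold change of Tnfrsf4 ranged from -0.012 to 1.17. For knockouts over challenged controls, Pdcd1 ranged from -1.23 to 0.22, Il2ra from -3.22 to 0.048 and Tnfrsf4 from -0.91 to 0.29, with the upper ends without challenged control 1. For knockouts over unchallenged controls, Foxp3 ranged from -0.16 to 0.59, Tnfrsf4 from -0.0024 to 0.58 and Tnfrsf18 from -0.34 to 0.39. Cd274 gave most of the summed member counts, with 24749 over the 9 libraries. The log2 ratio of these summed member counts to CD3 chain counts differed by 0.16 with challenge (-0.25 to 0.60 with 1 library left out), by -0.10 with genotype (-0.54 to 0.31, and 0.18 without Cd274) and by 0.06 between knockouts and unchallenged controls (-0.12 to 0.20). The cause of these changes was not tested. Depth limits Foxp3 and Ctla4 most, with 7 to 31 and 0 to 434 counts per library.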
